A study of Mus musculus with 12 samples.

Results

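The intestinal response to a high-fat diet (HFD) was described in mice with an intact Ppara gene, from 6 of the 12 bulk RNA-seq libraries of a study of intestinal PPARA. The 6 libraries were chosen by their column labels and not by any measured value. They comprise 3 libraries of Pparafl/fl mice on HFD and 3 of Pparafl/fl mice on chow. The other 6 libraries came from PparaΔIE mice on the same diets and enter here only as an alternative. Both groups carried floxed Ppara alleles, which are flanked by recombinase sites and serve as the control genotype of such a study. The mice were C57BL/6 males of 7 to 8 weeks, and the diet, labelled 60% HFD, or chow was given over 10 days. The tissue is labelled intestine with no segment named, and nothing in the labels states that each library is its own mouse. The p-values therefore speak only of the spread among these 6 libraries, part of which may be technical. All genes that passed a filter on low counts were tested, 16895 of the 47643 in the table.

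PPARA is a nuclear receptor that binds fatty acids, pairs with RXR and switches on genes for fatty acid uptake, oxidation and export. Absorptive enterocytes take up dietary fat at the brush border, rebuild triglyceride and export it in chylomicrons, and burn a part of it in mitochondria and peroxisomes. The small intestine is also patterned along its length, with lactase and FABP1 high in the proximal part and the bile acid transport genes high in the ileum, and it makes antimicrobial proteins and answers interferon.

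Depth was similar in both groups, at 36727457 to 40512099 expected counts in HFD libraries and 34720194 to 53959405 in chow libraries. Levels are given as CPM, read counts scaled to library size, and 1 CPM stood for 34.7 to 54.0 counts before scaling. The HFD libraries varied more among themselves than the chow libraries did. The biological coefficient of variation was 0.143 in HFD and 0.0569 in chow. Across 138 immunoglobulin V genes, which carry the B cell clones of an animal, the correlation was 0.690 to 0.777 between HFD libraries and 0.887 to 0.955 between chow libraries. Between an HFD and a chow library it was 0.541 to 0.745, a range that overlapped the one within HFD. Genes, not replicates, are the points of these correlations. No pair agreed within sampling noise. The median chi-square per gene was 1.80 to 4.88 between HFD libraries and 1.08 to 1.53 between chow libraries, against 0.455 for counting noise alone. Mitochondrial transcripts took 4.45 ± 0.407% of counts in HFD and 3.24 ± 0.135% in chow (SD, n = 3 each).

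The libraries also differed in some markers of the proximal small intestine. Lct, which encodes lactase (chromosome 1, 128284756 to 128328318, mm10), measured 257, 160 and 76.4 CPM in HFD libraries 1, 2 and 3, against 2.23, 2.75 and 2.01 CPM in chow libraries. Fabp1, the liver-type fatty acid binding protein (chromosome 6, 71199827 to 71205023), measured 156, 104 and 29.9 CPM in HFD, against 1.98, 2.03 and 2.42 CPM in chow. HFD library 3 held the lowest level of both among the HFD libraries and still lay far above chow. A score over proximal markers was 0.782, 0.751 and 0.228 in HFD libraries, against -0.752, -0.642 and -0.734 in chow libraries. Of 9 proximal markers tested, 3 were called higher and 0 lower, against 10.4% higher and 9.80% lower among all tested genes. Their summed level was 297 to 568 CPM in HFD and 189 to 227 CPM in chow, a sum that holds Lct and Fabp1. Gata4, a further member, measured 6.94, 9.97 and 1.72 CPM in HFD and 2.87, 2.11 and 2.88 CPM in chow. Neither Gata4 (adjusted p = 0.24) nor Cybrd1 (0.2) passed edgeR's quasi-likelihood test. In the list 7 members had a log2 fold change above 0 and 2 below, down to -0.65. Fabp1 is also a listed PPARA target. Pdx1, a defining gene of the duodenum, was near 0 in both groups, at up to 0.174 CPM in HFD and up to 0.151 CPM in chow.

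Genes of the ileum were measured alongside. Slc10a2, the ileal bile acid importer, measured 966, 1086 and 1393 CPM in HFD and 1194, 1236 and 1216 CPM in chow, so that the groups overlapped (log2 fold change -0.08, SE 0.12, adjusted p = 0.68). Fabp6, the ileal bile acid binding protein, measured 3694, 4321 and 4008 CPM in HFD and 3725, 3896 and 3522 CPM in chow, and did not pass the test either (adjusted p = 0.42). Of 10 distal markers, 1 was called higher and 3 lower, against 10.4% higher and 9.80% lower among all tested genes. Their summed level was 7858 to 8884 CPM in HFD and 8497 to 9204 CPM in chow. Every library of both groups thus held transcripts of the ileal genes, and the HFD libraries held more Lct and Fabp1 transcripts beside them. Diet and the stretch of intestine sampled cannot be told apart in this comparison, and every result below carries that limit.

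**Figure D1:**
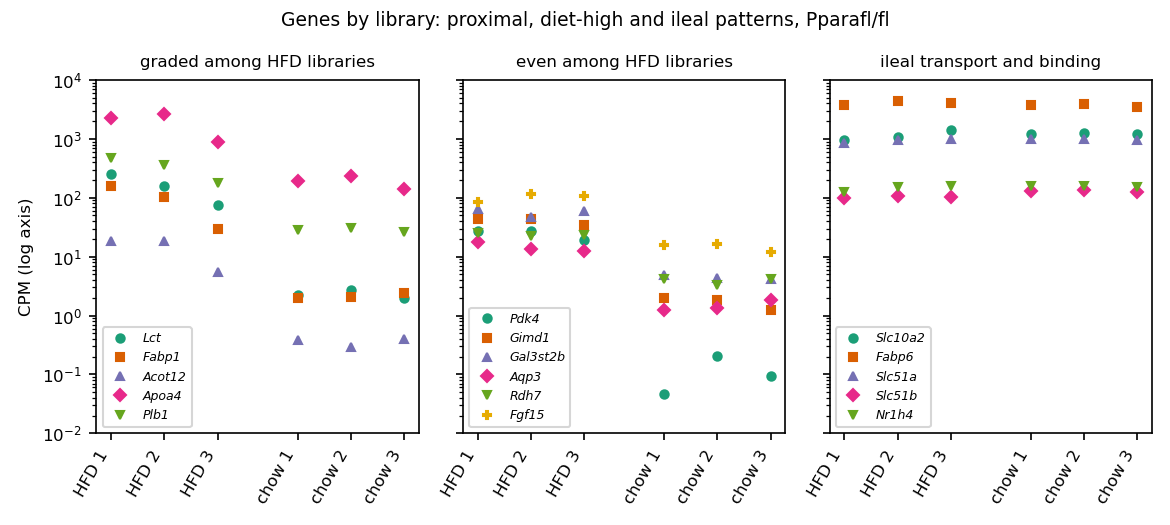
CPM on a log axis in each of the 6 libraries, HFD at left and chow at right, for 3 sets of genes grouped after their values were seen. In the first panel HFD library 3 is lowest among the HFD libraries (Lct at 76.4 CPM, against 257 and 160). In the second the HFD libraries lie closer to each other, though library 3 is again lowest for Pdk4, Gimd1 and Aqp3. In the third the ileal genes are near their chow levels.

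In the whole transcriptome 3415 genes, or 20.2% of those tested, passed an adjusted p of 0.05 in edgeR's quasi-likelihood test. Of these 1760 (10.4%) were higher and 1655 (9.80%) lower in HFD. The counts of gene list members below are read against these shares, and a count near them is no result about its list. A change of at least 2-fold was called for 542 genes (3.21%), 334 higher (1.98%) and 208 lower (1.23%). The median log2 fold change over all tested genes was 0.01. The CPM ranges of the groups did not overlap for 3370 genes with HFD above (19.9%) and 3192 with HFD below (18.9%). The number of calls depended on single libraries. It was 5689 without HFD library 1, 2376 without HFD library 2, 2561 without HFD library 3, 1512 without chow library 1, 1847 without chow library 2 and 1582 without chow library 3.

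**Figure D2:**
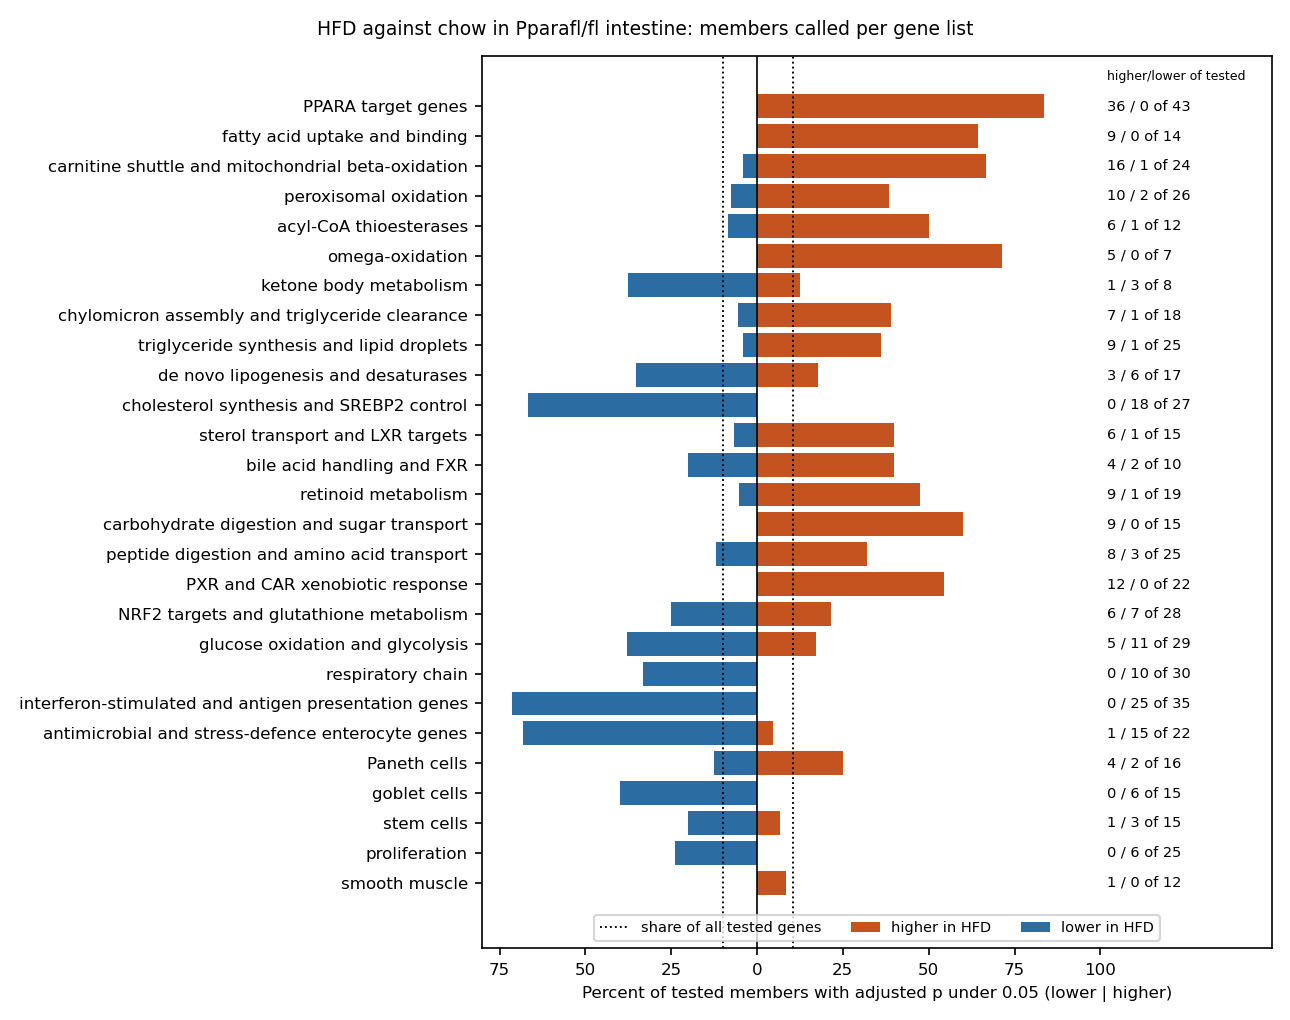
Percent of the tested members of each gene list called higher (right) or lower (left) in HFD at an adjusted p under 0.05, with the counts at the right edge and the shares of all tested genes (10.4% higher, 9.80% lower) as dotted lines. Most fat-handling lists lie to the right, with 36 of 43 PPARA targets higher, and the cholesterol, interferon and antimicrobial lists to the left. Ketone body metabolism (1 higher, 3 lower of 8) and de novo lipogenesis and desaturases (3 higher, 6 lower of 17) have more members lower than higher.

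Ppara itself was higher on HFD. Its level (chromosome 15, 85734983 to 85802819) was 39.4, 36.7 and 33.8 CPM in HFD libraries, against 19.2, 18.1 and 22.0 CPM in chow libraries, and the groups did not overlap. The increase was 1.85-fold (log2 fold change 0.89, SE 0.09, adjusted p = 0.00013). Pparg, the adipogenic relative of Ppara, fell to 3.78, 4.38 and 4.07 CPM in HFD, against 7.66, 10.1 and 8.65 CPM in chow (log2 fold change -1.11, SE 0.13, adjusted p = 0.0004). Of 13 tested receptors and partners 4 were higher (2 without chow library 1) and 2 lower (1 without chow library 1 or 3). Ncor1, a corepressor of nuclear receptors, was higher (0.46, adjusted p = 0.0018), as was Hnf4g, an enterocyte transcription factor (0.31, adjusted p = 0.0071). Ppargc1b, a coactivator of oxidative genes, fell by 0.39 (adjusted p = 0.012).

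Known PPARA target genes rose together. Of 46 listed, 43 passed the filter on low counts, and 36 of these were called higher and 0 lower, against 10.4% higher among all tested genes. Their median log2 fold change was 0.68, and 14 rose at least 2-fold. Among the 3 members that were not tested, Fgf21 had at most 1 count in any library. Cyp4a10, an omega-hydroxylase, had 38, 3 and 2 counts in HFD libraries, against 0 in each chow library, and did not pass the filter. The list was compiled with earlier results of these data known. The count of higher members ran from 29 without chow library 1 to 38 without HFD library 3. In a fit of all 12 libraries with the proximal score as a covariate the median was 0.63 and no member was called.

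**Figure D3:**
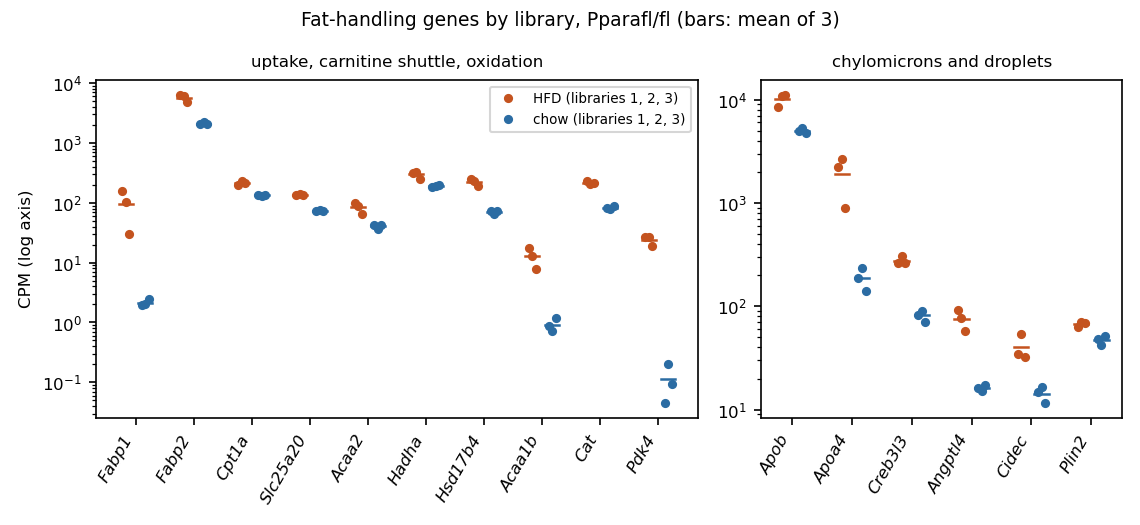
CPM on a log axis of fat-handling genes, one dot per library and a bar at the mean of 3, with HFD at the left and chow at the right of each gene. In each of these genes all 3 HFD libraries lie above all 3 chow libraries, and the gap is widest for Pdk4, at 19.0 to 27.1 CPM against 0.0456 to 0.203 CPM.

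Promoters of PPARA targets are shown because these genes moved as a group. PPARA with RXR binds a direct repeat of AGGTCA spaced by 1 base, a pattern that HNF4 factors also bind. This repeat was searched on both strands with at most 2 mismatches in windows of 250 bases before to 50 bases after the RefSeq gene start (GRCm38.p6). It was found for 6 of 31 PPARA targets called higher that had a window (19.4%), against 0 of 6 targets that were not called and 434 of 11414 tested genes with a window (3.80%). The 6 genes were Acot12, Cd36, Creb3l3, Fabp1, Plin2 and Slc25a20. The same pattern was found for 3 of 11 lower antimicrobial genes (27.3%) and for 1 of 4 antimicrobial genes that were not called (25%). A match is a description of letters and not of binding. The 250 bases before the start of 3 of them are printed 5′ to 3′ along the gene, with the matched letters in capitals. The match begins 67 bases before the start in Fabp1, 110 in Acot12 and 225 in Plin2, lies on the opposite strand in each, and has 1, 1 and 2 mismatches.
Fabp1, chr6:71199629-71199878, plus strand: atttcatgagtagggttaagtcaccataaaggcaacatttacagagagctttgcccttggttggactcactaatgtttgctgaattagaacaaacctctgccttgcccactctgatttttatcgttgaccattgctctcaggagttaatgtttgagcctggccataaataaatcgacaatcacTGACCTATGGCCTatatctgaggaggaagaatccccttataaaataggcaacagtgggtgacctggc
Acot12, chr13:91741271-91741520, plus strand: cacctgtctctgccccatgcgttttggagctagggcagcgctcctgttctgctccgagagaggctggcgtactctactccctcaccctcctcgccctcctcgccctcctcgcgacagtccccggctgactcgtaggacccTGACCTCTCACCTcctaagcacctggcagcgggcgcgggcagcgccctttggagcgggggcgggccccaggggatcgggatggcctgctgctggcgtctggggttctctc
Plin2, chr4:86670060-86670309, minus strand: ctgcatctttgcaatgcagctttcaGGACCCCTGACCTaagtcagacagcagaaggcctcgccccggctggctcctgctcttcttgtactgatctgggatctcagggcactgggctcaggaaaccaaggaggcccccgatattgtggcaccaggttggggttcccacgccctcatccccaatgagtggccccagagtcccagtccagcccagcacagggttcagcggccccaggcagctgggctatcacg

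Fatty acid uptake and intracellular binding were higher. Of 14 genes 9 were called higher and 0 lower (median 0.35). Fabp2, the intestinal fatty acid binding protein, measured 6267, 6062 and 4875 CPM in HFD, against 2084, 2226 and 2051 CPM in chow. The groups did not overlap, and the difference was 1.44 on the log2 scale (SE 0.11, adjusted p = 2.4e-05). Fabp1 rose by 5.48 (SE 0.85, adjusted p = 0.019), with the spread among HFD libraries given above, and its call was lost without HFD library 2 (adjusted p = 0.057) and without any one chow library (0.077 to 0.095). Scp2, a sterol carrier protein, rose to 478 to 541 CPM in HFD, against 288 to 296 CPM in chow (0.81, adjusted p = 5.9e-05). Acsl3 and Acsl1, which activate long-chain fatty acids to acyl-CoA, rose by 0.85 (adjusted p = 4.6e-05) and 0.40 (adjusted p = 0.0013). Slc27a4, a fatty acid transport protein of the enterocyte, rose by 0.29 (adjusted p = 0.025). Cd36, a fatty acid translocase, measured 4.85, 3.65 and 1.91 CPM in HFD and 1.09, 2.03 and 1.25 CPM in chow. It passed the test (1.28, SE 0.36, adjusted p = 0.04) although the groups overlapped.

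Genes of mitochondrial entry and β-oxidation of fatty acids rose. Of 24 genes 16 were called higher and 1 lower (median 0.39), and the count of higher members ran from 11 to 17 with a library left out, lowest without chow library 1. Slc25a20, the carnitine-acylcarnitine carrier, measured 133, 139 and 135 CPM in HFD, against 73.7, 75.5 and 74.1 CPM in chow. The libraries of each group lay close together, and the difference was 0.87 (SE 0.06, adjusted p = 1e-05). Cpt1a, the rate-limiting carnitine palmitoyltransferase of the outer membrane, measured 201, 232 and 214 CPM in HFD, against 137, 132 and 135 CPM in chow (0.68, SE 0.07, adjusted p = 0.00015). Its inner-membrane partner Cpt2 rose by 0.66 (adjusted p = 0.00011), the carnitine importer Slc22a5 by 0.78 (adjusted p = 5.1e-05) and carnitine acetyltransferase Crat by 0.56 (adjusted p = 0.00038). Among the cycle's enzymes, the thiolase Acaa2 rose by 1.03 (adjusted p = 0.0032), Hadha and Hadhb of the trifunctional protein by 0.65 and 0.45, and the very-long-chain and long-chain dehydrogenases Acadvl and Acadl by 0.63 and 0.45. Acadm, the medium-chain dehydrogenase, was 96.7, 100 and 82.5 CPM in HFD and 91.3, 92.2 and 92.5 CPM in chow, with overlapping groups (0.02, SE 0.08, adjusted p = 0.89). Echs1, the short-chain enoyl-CoA hydratase, was the member called lower (-0.39, adjusted p = 0.0019).

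Peroxisomal enzymes rose in part. Of 26 genes 10 were called higher and 2 lower (median 0.16). Hsd17b4, the multifunctional enzyme of peroxisomal β-oxidation, measured 253, 230 and 190 CPM in HFD, against 73.3, 64.6 and 74.0 CPM in chow (1.67, SE 0.10, adjusted p = 1e-05). Catalase, encoded by Cat, measured 230, 206 and 212 CPM in HFD, against 82.9, 80.2 and 87.3 CPM in chow (1.37, SE 0.07, adjusted p = 3.1e-06). The groups were well apart for both. Acaa1b, a peroxisomal thiolase, measured 17.5, 13.1 and 7.87 CPM in HFD, against 0.866, 0.724 and 1.17 CPM in chow, a 13.6-fold increase (3.77, SE 0.35, adjusted p = 0.00076). Its close relative Acaa1a was 193 to 218 CPM in HFD and 177 to 191 CPM in chow (0.14, adjusted p = 0.19), and reads shared by these near copies were divided by estimation. Ephx2, a soluble epoxide hydrolase, rose by 1.51 (adjusted p = 5.6e-06), the peroxisomal fatty acid importer Abcd3 by 0.97 (adjusted p = 5.8e-05) and the peroxisome division factor Pex11a by 0.62 (adjusted p = 0.0002). Hacl1 and Nudt19 were lower, by -0.29 and -0.30.

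Acyl-CoA thioesterases, which release free fatty acid from CoA, followed. Of 12 tested 6 were higher and 1 lower (median 0.42). Acot12, which prefers acetyl-CoA (chromosome 13, 91741512 to 91786148), measured 18.5, 18.2 and 5.58 CPM in HFD, against 0.388, 0.290 and 0.397 CPM in chow, from 10 to 21 counts per chow library. It rose by 5.27 (SE 0.66, adjusted p = 0.0063), with HFD library 3 the lowest of its group. The mitochondrial Acot2 measured 7.77, 8.93 and 7.49 CPM in HFD, against 3.15, 3.10 and 2.52 CPM in chow (1.47, adjusted p = 8.4e-05), while Acot7 fell by 0.56 (adjusted p = 0.0044). Omega-oxidation, which starts from the methyl end, had 5 of 7 tested genes higher (3 without chow library 1) and 0 lower. The median was 0.36, and 0.02 in the fit with the proximal score. Cyp4f16 measured 225, 226 and 233 CPM in HFD, against 113, 105 and 111 CPM in chow (1.05, SE 0.06, adjusted p = 5.5e-06), and Cyp4v3 rose by 0.96 (adjusted p = 3.4e-05). Several of these families hold near-identical genes, so the split of counts among their members is uncertain.

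Ketone body genes moved in both directions. Of 8 genes 1 was called higher, a call kept in 1 of the 6 fits with a library left out, and 3 were lower (5 without HFD library 1; median -0.17). Oxct1, which uses ketone bodies in place of making them, fell to 164, 159 and 195 CPM in HFD, against 262, 261 and 272 CPM in chow (-0.62, adjusted p = 0.00086), and Bdh1 and Aacs fell by 0.45 (adjusted p = 0.002) and 0.84 (adjusted p = 0.00016).

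Pdk4 showed the largest increase among the 12 genes named for size. It encodes the kinase that blocks pyruvate dehydrogenase and so spares glucose when fat is burned (chromosome 6, 5483351 to 5496309). It measured 27.1, 26.9 and 19.0 CPM in HFD, against 0.0456, 0.203 and 0.0946 CPM in chow. The chow values rest on 2, 7 and 5 counts per library, against 1087, 1083 and 696 counts in HFD. The fitted change was 7.79 on the log2 scale (SE 0.29, adjusted p = 2.4e-06), and its size depends on those few counts. Over the glycolysis and glucose oxidation list, 5 of 29 genes were higher and 11 lower (median -0.18), with the lower count at 5 without any one chow library and 18 without HFD library 1. Hk2, a hexokinase, fell to 61.1, 87.3 and 116 CPM in HFD, against 248, 262 and 235 CPM in chow (-1.49, SE 0.23, adjusted p = 0.0078). The glucose transporter Slc2a1 and the glycolytic enzymes Aldoa and Pgk1 fell by 0.61 (adjusted p = 0.00054), 0.46 (adjusted p = 0.001) and 0.39 (adjusted p = 0.0018). The gluconeogenic genes G6pc (2.80, adjusted p = 0.0051), Pck1 (1.56, adjusted p = 0.002) and Fbp1 (1.38, adjusted p = 0.0047) rose. For G6pc the levels were 11.5, 12.1 and 4.48 CPM in HFD, against 1.32, 1.25 and 1.44 CPM in chow. In the fit of all 12 libraries with the proximal score the log2 fold change was 0.01 for G6pc, -0.26 for Fbp1, 1.34 for Pck1 and 0.03 for Hk2.

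Chylomicron genes were higher in part. Of 18 tested 7 were higher and 1 lower (median 0.28), and 5 rose at least 2-fold. Apob, the structural protein of chylomicrons, measured 8389, 10855 and 10980 CPM in HFD, against 4915, 5327 and 4717 CPM in chow (1.01, SE 0.12, adjusted p = 0.00034). Apoa4 (chromosome 9, 46240696 to 46243459), an apolipoprotein secreted with fat absorption, measured 2226, 2652 and 885 CPM in HFD, against 190, 234 and 142 CPM in chow. It rose by 3.35 (SE 0.52, adjusted p = 0.016), and the call was lost without chow library 1 (adjusted p = 0.075) and chow library 3 (0.065). Apoa1, the main protein of HDL, rose by 0.70 (adjusted p = 0.00022) and Apoc3, an inhibitor of triglyceride clearance, by 1.61 (adjusted p = 0.01). Creb3l3, a transcription factor of apolipoprotein genes, measured 260, 306 and 261 CPM in HFD, against 83.2, 90.5 and 71.3 CPM in chow (1.76, SE 0.10, adjusted p = 5.6e-06). Angptl4, a secreted inhibitor of lipoprotein lipase, measured 92.4, 76.9 and 58.3 CPM in HFD, against 16.2, 15.1 and 17.3 CPM in chow (2.22, SE 0.17, adjusted p = 0.00028). Mttp, which loads lipid onto APOB, was 1457, 1572 and 1162 CPM in HFD and 1114, 1137 and 1099 CPM in chow and did not pass (0.32, SE 0.10, adjusted p = 0.054). Sar1b, a GTPase of chylomicron export from the endoplasmic reticulum, was lower (-0.24, adjusted p = 0.035).

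In triglyceride synthesis and storage, 9 of 25 tested genes were higher and 1 lower (median 0.09). Cidec, a lipid droplet fusion protein, measured 34.4, 53.8 and 32.1 CPM in HFD, against 14.8, 16.5 and 11.7 CPM in chow (1.49, SE 0.24, adjusted p = 0.0094). Plin2, a droplet coat protein, measured 62.6, 70.0 and 69.5 CPM in HFD, against 47.9, 42.0 and 51.1 CPM in chow (0.52, adjusted p = 0.0021). The lipases Mgll and Lipe rose by 0.75 (adjusted p = 0.0012) and 0.67 (adjusted p = 0.00028). The acyltransferases Agpat2 and Dgat2 rose by 0.45 (adjusted p = 0.0022) and 0.46 (adjusted p = 0.028). Mogat2, the enzyme that starts the main resynthesis route of the enterocyte, was 300, 320 and 276 CPM in HFD and 285, 281 and 295 CPM in chow (0.06, SE 0.07, adjusted p = 0.61), and Lpin1 was the member called lower (-0.54, adjusted p = 0.0036).

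Cholesterol synthesis was lower on HFD. Of 27 genes of the pathway and its SREBP2 control, 18 were called lower and 0 higher, against 9.80% lower among all tested genes. The median log2 fold change was -0.53, and no member reached 2-fold. With a library left out, 17 to 19 members were lower, so that no single library carried this count. Sqle, squalene epoxidase, measured 197, 206 and 223 CPM in HFD, against 351, 356 and 339 CPM in chow (-0.74, SE 0.07, adjusted p = 8.1e-05). The libraries of a group lay close together and far from the other group. Insig1, which retains SREBP in the endoplasmic reticulum and is itself an SREBP target, measured 110, 109 and 113 CPM in HFD, against 190, 189 and 185 CPM in chow (-0.77, SE 0.06, adjusted p = 2.5e-05). Fdft1 (-0.76), Mvd (-0.75) and Msmo1 (-0.71), enzymes of the pathway, fell as well. Of the enzymes of the last steps, Ebp (-0.21, adjusted p = 0.056) and Dhcr7 (-0.07, adjusted p = 0.51) did not pass the test. In the fit of all 12 libraries with the proximal score the list median was -0.17 and no member was called.

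**Figure D4:**
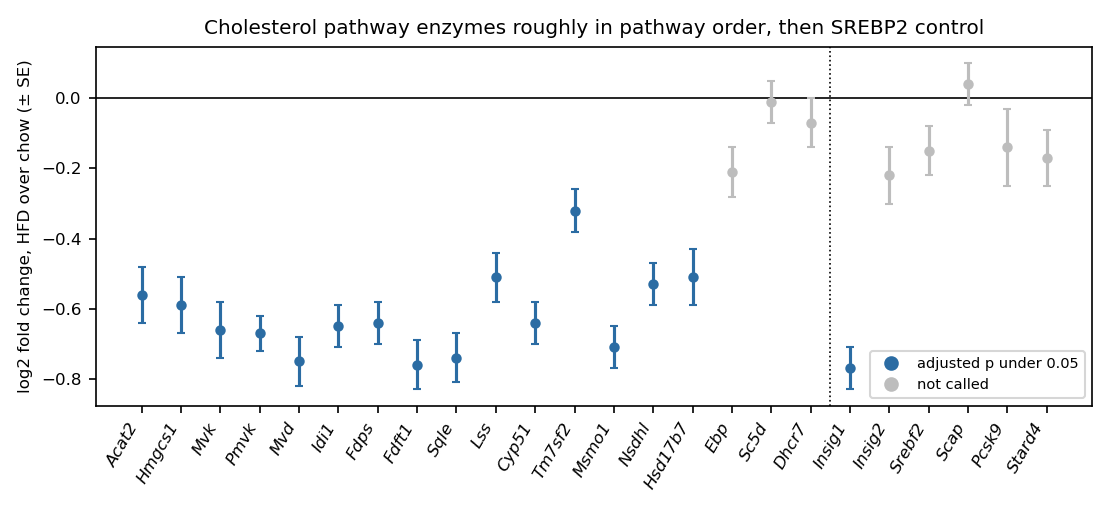
Log2 fold change of HFD over chow with its standard error for 24 of the 27 genes, the enzymes roughly in pathway order and then control genes, with called genes in blue and others in grey. From Acat2 to Hsd17b7 every enzyme is lower, by up to -0.76, and the points from Ebp to Dhcr7 lie between -0.21 and -0.01.

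SREBP2 binds the sterol regulatory element, and its letters TCACCCCAC were searched on both strands. Without a mismatch they were found for 1 of 13 lower cholesterol genes with a window (7.69%), Hmgcs1, and for 74 of 11414 tested genes (0.648%). With 1 mismatch allowed they were found for 4 of 13 lower genes (30.8%), 1 of 6 members that were not called (16.7%) and 12.5% of all tested genes with a window. Hmgcs1, the cytosolic HMG-CoA synthase, fell to 527, 552 and 616 CPM in HFD, against 848, 869 and 840 CPM in chow (-0.59, SE 0.08, adjusted p = 0.00069). Its match, in capitals, begins 137 bases before the start.
Hmgcs1, chr13:119690101-119690350, plus strand: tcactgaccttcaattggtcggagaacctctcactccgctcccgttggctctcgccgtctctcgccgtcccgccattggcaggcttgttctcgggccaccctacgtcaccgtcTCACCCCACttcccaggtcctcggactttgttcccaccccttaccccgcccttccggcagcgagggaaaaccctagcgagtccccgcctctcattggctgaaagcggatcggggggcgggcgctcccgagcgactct

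Some sterol transport genes were higher. Abca1, the cholesterol efflux pump and a target of the sterol sensor LXR, measured 105, 111 and 93.1 CPM in HFD, against 31.3, 33.9 and 33.7 CPM in chow (1.64, SE 0.08, adjusted p = 2.4e-06). Mylip, an LXR target and ubiquitin ligase, measured 22.2, 26.7 and 31.1 CPM in HFD, against 13.5, 14.3 and 13.3 CPM in chow (0.96, adjusted p = 0.00043). Of 15 sterol transport and LXR genes 6 were higher and 1 lower (median 0.17), with Scarb1 (0.96), Lpcat3 (0.54), Abcg1 (0.49) and Abcg8 (0.32) the others higher and the lysosomal Npc2 lower (-0.29). Abcg5, the export partner of Abcg8, was 163, 213 and 192 CPM in HFD and 165, 170 and 164 CPM in chow, with overlapping groups (0.19, SE 0.09, adjusted p = 0.17). The list median was -0.02 in the fit with the proximal score. Fatty acid synthesis moved less evenly, with 3 of 17 genes higher and 6 lower (median -0.13). Acly, Fasn and Acss2, which make acetyl-CoA and fatty acids in the cytosol, fell by 0.43 (adjusted p = 0.0021), 0.30 (adjusted p = 0.021) and 0.41 (adjusted p = 0.0015), and Acacb, whose product malonyl-CoA inhibits CPT1, rose by 1.57 (adjusted p = 0.0033). Srebf1 rose by 0.40 (adjusted p = 0.0029).

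Fgf15 (measured here in intestine, where bile acids induce it through FXR) was 84.6, 116 and 108 CPM in HFD, against 15.9, 16.7 and 12.1 CPM in chow (2.79, SE 0.16, adjusted p = 6.8e-05). The HFD libraries were close to each other, unlike for Lct. Of 10 bile acid genes 4 were higher and 2 lower (median 0.02). Nr0b2, the FXR target SHP, was low at 0.797, 1.52 and 0.574 CPM in HFD, against 0.114, 0.0869 and 0.0378 CPM in chow (3.60, SE 0.53, adjusted p = 0.0016). The canalicular-type exporter Abcc2 rose by 0.70 (adjusted p = 0.00038). The basolateral exporters Abcc3 (-0.87, adjusted p = 0.00058) and Slc51b (-0.31, adjusted p = 0.0063) fell, and Slc51b is a known FXR target like Fgf15 and Nr0b2.

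Of 19 tested retinoid genes 9 were higher and 1 lower (median 0.31), against 10.4% higher and 9.80% lower among all tested genes. Rdh7, a retinol dehydrogenase, measured 25.0, 22.0 and 22.9 CPM in HFD, against 4.15, 3.33 and 4.22 CPM in chow (2.57, SE 0.11, adjusted p = 1.3e-06). Retsat, a retinol saturase and PPAR target, measured 144, 92.2 and 74.3 CPM in HFD, against 20.2, 20.2 and 23.2 CPM in chow (2.29, SE 0.27, adjusted p = 0.0048). Rbp2, the enterocyte retinol carrier, measured 291, 335 and 197 CPM in HFD, against 82.6, 83.2 and 83.6 CPM in chow (1.72, adjusted p = 0.0017). The retinoic acid makers Aldh1a3 and Aldh1a1 rose by 1.12 (adjusted p = 0.0002) and 0.86 (adjusted p = 0.00014), and Cyp26b1, which breaks retinoic acid down, by 1.66 (adjusted p = 0.0026). Rdh16 was the member called lower (-0.42, adjusted p = 0.039), with overlapping groups.

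Of 15 genes of carbohydrate digestion and sugar transport 9 were higher and 0 lower (median 0.35). In the fit with the proximal score the median was -0.10, and the log2 fold change of Slc2a2 was -0.44. Lct rose by 6.16 (SE 0.65, adjusted p = 0.0062). Slc2a2, the basolateral glucose transporter, measured 53.4, 44.2 and 26.0 CPM in HFD, against 5.02, 5.53 and 4.86 CPM in chow (3.01, adjusted p = 0.0019), and Slc5a4b rose by 3.26 (adjusted p = 0.00076). The main apical glucose transporter Slc5a1 was 1681, 2132 and 1853 CPM in HFD and 2034, 2048 and 2021 CPM in chow, with overlapping groups (-0.11, SE 0.09, adjusted p = 0.46). Of 25 peptide and amino acid genes 8 were higher (13 without HFD library 1) and 3 lower (1 without chow library 1 or 2, 5 without HFD library 1), with a median of 0.10, among them Slc7a8 (1.02, adjusted p = 9.8e-06). Lipid-digesting enzymes of the brush border were among the largest increases. Plb1, phospholipase B (chromosome 5, 32232708 to 32366520), measured 479, 356 and 175 CPM in HFD, against 28.7, 30.2 and 26.3 CPM in chow (3.57, SE 0.43, adjusted p = 0.0079). Enpp7, alkaline sphingomyelinase (chromosome 11, 118988188 to 118993221), measured 364, 271 and 193 CPM in HFD, against 25.0, 27.8 and 26.1 CPM in chow (3.39, SE 0.25, adjusted p = 0.00058). Both had their lowest HFD level in library 3, as Lct had.

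The proximal score entered a fit of all 12 libraries, whose slope on the score also rests on the PparaΔIE libraries. In edgeR's test 0 genes passed there (smallest adjusted p 0.11, 1266 at an unadjusted p under 0.05), and the median SE over the genes called in the 6 libraries was 0.24, against 0.09. The fitted log2 fold change was 0.45 for Lct, -0.93 for Plb1, 0.49 for Enpp7 and 0.14 for Ppara. Lct is itself one of the score's genes, as is Fabp1, so that their values there are no independent reading. The fitted value was 8.94 for Pdk4, 3.75 for Gal3st2b and 2.14 for Aqp3. With standard errors of this size these values do not sort the genes by diet or by stretch. With Fabp1, Gata6 and Hoxb5 taken out of the score, an alternative chosen after seeing the data, 45 genes passed, 43 of them called in the 6 libraries too. Among these were Slc25a20, Slc22a5, Scp2, Fabp2, Pex11a, Cyp4f16, Angptl4, Abca1, Rbp2, Aqp3 and Gal3st2b, all higher in HFD, and Mt1, Mt2, Cd177 and Cd274, all lower.

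Water and glycerol channels rose in 5 of 7 tested members, with 0 lower (median 0.61). Aqp3, a glycerol-conducting aquaporin (chromosome 4, 41092722 to 41098183), measured 17.8, 13.7 and 12.6 CPM in HFD, against 1.25, 1.36 and 1.87 CPM in chow (3.28, SE 0.18, adjusted p = 5.6e-06). Aqp7, another glycerol channel, rose by 1.16 (adjusted p = 5.9e-05), Aqp1 by 0.96 (adjusted p = 1e-05) and the glycerol kinase Gk by 0.38 (adjusted p = 0.0027). Targets of the xenobiotic receptors PXR and CAR were higher in 12 of 22 tested members and lower in 0 (median 0.49), with 8 to 14 higher when a library was left out, lowest without chow library 1. Cyp2d26 measured 136, 102 and 105 CPM in HFD, against 25.4, 24.3 and 25.0 CPM in chow (2.20, SE 0.11, adjusted p = 3.4e-06). Cyp3a25 rose by 1.29 (adjusted p = 1.5e-05), the carboxylesterase Ces2a by 0.76 (adjusted p = 0.00036) and the glucuronosyltransferase Ugt1a1 by 0.77 (adjusted p = 0.0017). Cyp2b10, a classic CAR target, was 4.98, 6.14 and 0.601 CPM in HFD and 0.456, 0.579 and 0.530 CPM in chow, and did not pass (2.91, SE 0.88, adjusted p = 0.08). The list members Cyp3a11 (-0.36, adjusted p = 0.24), Cyp3a13 (-0.14, adjusted p = 0.36) and Cyp2c55 (0.24, adjusted p = 0.53) did not pass either. In the fit with the proximal score the median of the PXR and CAR list was 0.11. Glutathione and NRF2 genes moved both ways, 6 higher and 7 lower of 28 (2 lower without chow library 3, 3 without chow library 1, 4 without chow library 2 or HFD library 2, and 12 without HFD library 1), with Gclm (0.60, adjusted p = 0.0002) and Gclc (0.49, adjusted p = 0.00051), the subunits that start glutathione synthesis, higher, and Nqo1 (-0.53, adjusted p = 0.014) and Gpx2 (-0.45, adjusted p = 0.0034) lower.

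Metallothioneins, small proteins that bind zinc and copper, were lower. Mt2 (chromosome 8, 94172664 to 94173568) measured 3.16, 1.44 and 1.89 CPM in HFD, against 14.1, 12.3 and 15.4 CPM in chow (-2.69, SE 0.25, adjusted p = 0.00038). Mt1 measured 20.0, 13.2 and 19.7 CPM in HFD, against 48.3, 41.6 and 50.4 CPM in chow (-1.41, SE 0.16, adjusted p = 0.0016). The zinc exporter Slc30a1, induced by zinc like the metallothioneins, fell by 0.34 (adjusted p = 0.042), and the importer Slc39a4, which zinc represses, rose by 0.43 (adjusted p = 0.0029). The Slc30a1 call was lost without any one chow library. Of 11 genes tested in this list 4 were lower (2 without any one chow library) and 1 higher (3 without HFD library 1). The list median was 0.03, with 6 members above 0 and 5 below.

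Interferon-stimulated and antigen presentation genes were lower as a group. Of 35 tested 25 were called lower and 0 higher, against 9.80% lower among all tested genes, and every member had a log2 fold change below 0 (median -0.94). The count of lower members was 21 to 28 with a library left out. Their summed level was 4978 to 6853 CPM in HFD and 7290 to 8515 CPM in chow. Irf1, an interferon regulatory factor, fell to 102, 150 and 157 CPM in HFD, against 300, 278 and 306 CPM in chow (-1.11, adjusted p = 0.003). The interferon-inducible GTPase Igtp (chromosome 11, 58199556 to 58207591) measured 8.54, 21.7 and 14.1 CPM in HFD, against 72.8, 64.0 and 84.9 CPM in chow. It fell by 2.32 (SE 0.36, adjusted p = 0.015), and the call was lost without HFD library 3 (adjusted p = 0.069), chow library 1 (0.066) and chow library 3 (0.058). Gbp2, a guanylate binding protein (chromosome 3, 142620602 to 142638008), measured 7.07, 12.7 and 8.50 CPM in HFD, against 43.0, 37.8 and 49.6 CPM in chow (-2.21, SE 0.22, adjusted p = 0.0016). Isg15, a ubiquitin-like protein, measured 5.10, 7.91 and 5.30 CPM in HFD, against 13.3, 9.99 and 15.7 CPM in chow (-1.10, SE 0.21, adjusted p = 0.011).

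The antigen processing genes Psmb9 (-1.31, adjusted p = 5.1e-05), Tap1 (-1.66, adjusted p = 0.0021) and Nlrc5, the activator of MHC class I (-1.09, adjusted p = 0.0095), fell. H2-D1 measured 699, 888 and 767 CPM in HFD, against 1101, 1028 and 1098 CPM in chow (-0.45, adjusted p = 0.0077). H2-K1 was 884, 1087 and 944 CPM in HFD and 1039, 965 and 1034 CPM in chow and overlapped between groups (-0.06, SE 0.09, adjusted p = 0.68). Reads shared by such close MHC genes were divided by estimation. Cd74 (-0.09, adjusted p = 0.72), H2-Ab1 (-0.22, adjusted p = 0.33) and H2-Aa (-0.42, adjusted p = 0.17), of MHC class II presentation, overlapped between groups and did not pass. B2m did not pass either (-0.23, adjusted p = 0.11). Cd274, which encodes the checkpoint ligand PD-L1 (chromosome 19, 29367455 to 29388095), measured 3.88, 4.43 and 5.17 CPM in HFD, against 20.6, 23.2 and 25.1 CPM in chow (-2.35, SE 0.12, adjusted p = 3.1e-06). Il18bp, the secreted inhibitor of IL-18, measured 3.88, 6.71 and 6.07 CPM in HFD, against 22.8, 24.7 and 25.7 CPM in chow (-2.14, SE 0.17, adjusted p = 0.00012). Among T cell markers the granzymes Gzmb (-1.86, adjusted p = 0.0098) and Gzma (-1.30, adjusted p = 0.017) were the 2 lower of 15, with 0 higher, against 9.80% lower among all tested genes. The lower count was 0 without HFD library 3, 1 without chow library 1 or 3 and 4 without HFD library 1. The list summed to 83.1 to 133 CPM in HFD and 174 to 204 CPM in chow, a sum that holds the granzymes themselves. Gzma measured 19.5, 37.9 and 27.4 CPM in HFD, against 67.9, 65.9 and 75.5 CPM in chow. The median log2 fold change of the T cell list was -0.25, with 12 members below 0 and 3 above. Cd3e, one of the 3 above 0, was 3.26, 4.08 and 4.16 CPM in HFD and 3.35, 2.95 and 3.77 CPM in chow (0.18, SE 0.15, adjusted p = 0.44). In bulk tissue fewer cells of a type and less RNA per cell cannot be told apart. In the fit with the proximal score the median of the interferon list was -0.46 and no member was called.

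**Figure D5:**
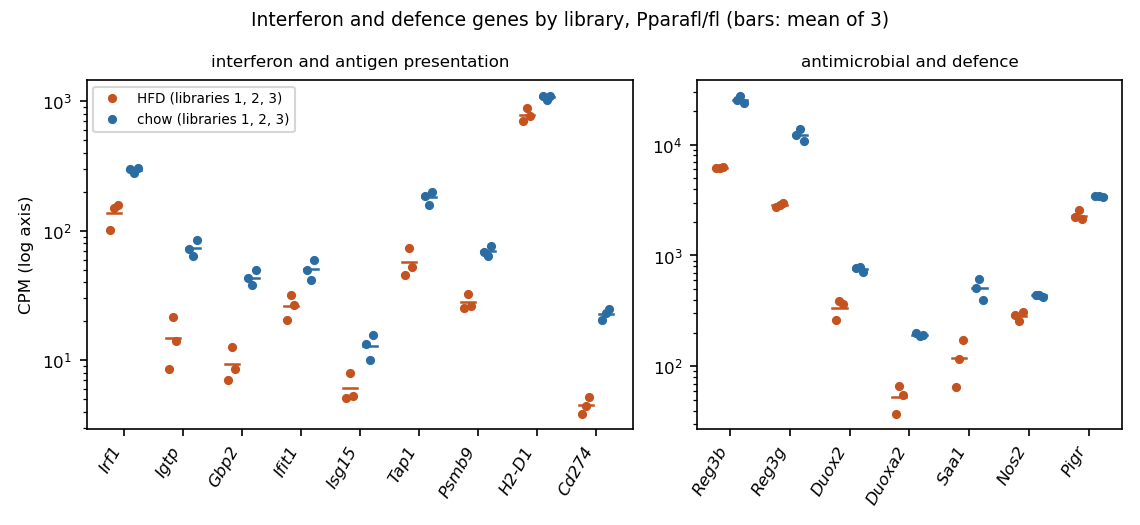
CPM on a log axis of interferon and defence genes, one dot per library and a bar at the mean of 3, with HFD at the left and chow at the right of each gene. All 3 HFD libraries lie below all 3 chow libraries for each gene drawn, for example Reg3b at 6153 to 6282 CPM against 23563 to 27465 CPM.

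The interferon-stimulated response element, searched as a pair of GAAA runs with any 2 bases between them on both strands with no mismatch, was found for 9 of 18 lower interferon genes with a window (50%), against 452 of 11414 tested genes (3.96%) and 1 of 6 members that were not called (16.7%). Promoters of Gbp2 and Igtp, which are among the 12 largest decreases, and of Isg15, which holds repeated matches, are shown with the matched letters in capitals. In Gbp2 the match begins 59 bases before the start on the opposite strand, in Igtp 34 bases before it, and in Isg15 3 overlapping matches begin 78 bases before it.
Gbp2, chr3:142620413-142620662, plus strand: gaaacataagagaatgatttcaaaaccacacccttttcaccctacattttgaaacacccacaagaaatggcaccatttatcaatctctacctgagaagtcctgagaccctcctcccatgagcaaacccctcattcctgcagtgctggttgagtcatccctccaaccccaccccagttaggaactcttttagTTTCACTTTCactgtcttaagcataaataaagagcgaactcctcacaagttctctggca
Igtp, chr11:58199306-58199555, plus strand: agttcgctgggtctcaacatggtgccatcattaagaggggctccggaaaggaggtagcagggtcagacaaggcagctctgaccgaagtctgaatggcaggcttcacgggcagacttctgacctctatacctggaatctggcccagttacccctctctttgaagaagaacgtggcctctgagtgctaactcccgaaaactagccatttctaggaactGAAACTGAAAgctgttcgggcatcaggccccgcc
Isg15, chr4:156200819-156201068, minus strand: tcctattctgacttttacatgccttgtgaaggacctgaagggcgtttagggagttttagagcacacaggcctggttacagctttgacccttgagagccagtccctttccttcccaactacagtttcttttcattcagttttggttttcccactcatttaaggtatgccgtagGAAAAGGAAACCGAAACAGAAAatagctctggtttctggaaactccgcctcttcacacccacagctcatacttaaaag
A different pattern, the gamma-activated site TTCNNNGAA, was found for 5 of the 18 (27.8%), against 8.33% of all tested genes.

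Antimicrobial and stress-defence genes of the enterocyte were lower too. Of 22 tested 15 were lower and 1 higher (median -0.93), 11 of them at least 2-fold, and 13 to 14 were lower with a library left out. The summed level of the list was 13110 to 13765 CPM in HFD and 40683 to 47998 CPM in chow. Most of this sum came from Reg3g and Reg3b, given next. Reg3g, a lectin that kills Gram-positive bacteria (chromosome 6, 78466269 to 78468872), measured 2731, 2863 and 2989 CPM in HFD, against 12138, 13859 and 10803 CPM in chow (-2.10, SE 0.11, adjusted p = 3.1e-06). Its neighbour Reg3b measured 6153, 6190 and 6282 CPM in HFD, against 25296, 27465 and 23563 CPM in chow (-2.03, SE 0.09, adjusted p = 2.4e-06). Reads of these near copies may be shared. Duoxa2 and Duox2, which form the hydrogen peroxide generator of the apical membrane, fell by 1.85 (adjusted p = 0.0019) and 1.16 (adjusted p = 0.00063). Saa1, an acute-phase protein, measured 65.7, 117 and 173 CPM in HFD, against 504, 614 and 397 CPM in chow (-2.09, SE 0.42, adjusted p = 0.031). Nos2, which makes nitric oxide, fell by 0.62 (adjusted p = 0.00077), and Pigr, the carrier of IgA across the epithelium, by 0.58 (adjusted p = 0.0018). Gsdmc2 (-1.14), Gsdmc3 (-1.09) and Gsdmc4 (-0.77), gasdermins of the enterocyte, fell together. Itln1, a lectin of Paneth and goblet cells, was the member called higher (0.47, adjusted p = 0.025). With the proximal score the list median was -0.33 and no member was called.

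Further large decreases fell outside these lists. Plet1, a surface protein of epithelial progenitors (chromosome 9, 50494525 to 50505482), measured 0.672, 0.472 and 0.738 CPM in HFD, against 30.1, 42.3 and 15.9 CPM in chow. The HFD values rest on 19 to 27 counts per library, and the change was -5.54 (SE 0.53, adjusted p = 0.0027). Tac1, the precursor of substance P (chromosome 6, 7554879 to 7565834), measured 3.31, 3.56 and 4.21 CPM in HFD, against 30.6, 37.3 and 24.7 CPM in chow (-3.06, SE 0.17, adjusted p = 1e-05). Gml and Gml2, neighbouring near copies on chromosome 15, fell by 2.75 (adjusted p = 0.0038) and 2.66 (adjusted p = 0.00072). Cd177, a surface antigen of neutrophils, measured 6.60, 4.90 and 4.51 CPM in HFD, against 28.5, 27.6 and 29.1 CPM in chow (-2.41, SE 0.13, adjusted p = 3.4e-06). Lrg1, a secreted glycoprotein, fell by 2.61 (SE 0.63, adjusted p = 0.043), a call that was lost in 5 of the 6 fits with a library left out (adjusted p 0.069 to 0.13). Among increases outside the lists, Gal3st2b, a sulfotransferase of galactose (chromosome 1, 93918311 to 93942650), measured 64.1, 48.0 and 59.0 CPM in HFD, against 4.97, 4.40 and 4.14 CPM in chow (3.66, SE 0.12, adjusted p = 4.6e-07). Gimd1 (chromosome 3, 132629820 to 132645351) measured 43.8, 44.2 and 34.0 CPM in HFD, against 1.96, 1.85 and 1.23 CPM in chow (4.62, SE 0.18, adjusted p = 3.1e-06).

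Counts of epithelial cell type markers are read against 10.4% higher and 9.80% lower among all tested genes. Of 17 markers of mature enterocytes 1 was higher (5 without HFD library 1) and 1 lower (2 without HFD library 1 or 2), with a summed level of 31330 to 36980 CPM in HFD and 36306 to 36866 CPM in chow. Goblet cell markers were lower in 6 of 15 (3 without chow library 1), with 0 higher, and Spink4 changed most, at 140, 132 and 99.9 CPM in HFD, against 316, 322 and 339 CPM in chow (-1.39, SE 0.11, adjusted p = 6.7e-05). The mucin Muc2 was 4157, 5278 and 5218 CPM in HFD and 5488, 5186 and 5720 CPM in chow (-0.16, SE 0.10, adjusted p = 0.31). Paneth cell markers were higher in 4 of 16 and lower in 2. The higher count was 10 without HFD library 3, 2 without HFD library 1 and 1 without any other single library, and the lower count was 1 without chow library 1 or 2. Of 16 enteroendocrine markers 6 were higher and 3 lower (1 without HFD library 3 or any one chow library), with Gip, the incretin of the proximal intestine, higher (1.27, adjusted p = 0.0087), Sst higher (0.76, adjusted p = 0.00045), and Cck (-0.59, adjusted p = 0.024) and Pyy (-0.20, adjusted p = 0.039) lower beside Tac1. Stem cell markers were higher in 1 and lower in 3 of 15 (1 lower without chow library 1, 5 without HFD library 1), Prom1 by -0.62 (adjusted p = 0.00044). Of 25 proliferation genes 6 were lower and 0 higher (median -0.34), and the lower count was 21 without HFD library 1, 2 without chow library 3 and 3 without chow library 1, chow library 2 or HFD library 2.

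Markers of other tissues were examined as well. Of 12 smooth muscle markers 1 was higher and 0 lower, with a median of -0.38. Without HFD library 1 the lower count was 7, and under limma voom it was 6. The score over these markers was 0.31, -0.34 and -0.53 in HFD libraries, against 0.22, 0.15 and 0.18 in chow libraries, so that HFD library 1 stood apart from the other HFD libraries. Mylk, a myosin kinase that non-muscle cells also express, was the member called higher, at 159, 167 and 159 CPM in HFD, against 132, 136 and 138 CPM in chow (0.25, adjusted p = 0.013). It made up most of the list's summed level of 202 to 244 CPM in HFD and 210 to 214 CPM in chow. Colon markers were tested for 5 of 13 genes, with 1 higher and 3 lower (1 without chow library 1). The carbonic anhydrases Car4 (-1.34, adjusted p = 5.6e-06) and Car1 (-3.06, adjusted p = 0.0036) were lower. Car1 was near 0 in both groups, with 2, 2 and 1 counts in HFD libraries, against 21, 9 and 20 in chow libraries. The defining colon gene Hoxb13 was at 0 in all 3 chow libraries and up to 0.0747 CPM in HFD. The colon markers summed to 249 to 264 CPM in HFD and 349 to 418 CPM in chow, and their part in the decreases reported was not tested. Of 3 tested pancreatic markers 2 were higher, with a summed level of 34.9 to 44.9 CPM in HFD and 25.3 to 25.6 CPM in chow. Adipocyte markers summed to 1.14 to 3.80 CPM in HFD and 1.48 to 6.55 CPM in chow.

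Nuclear genes of the respiratory chain were lower in 10 of 30 and higher in 0 (median -0.20), with small folds of up to -0.35, while the share of counts from the mitochondrial chromosome was higher in HFD, as given above. The count of lower members was 0 without chow library 1 or 3, 2 without chow library 2, 5 without HFD library 2, 6 without HFD library 3 and 22 without HFD library 1, so that it rested on single libraries.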

How the data were processed

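Bulk RNA-seq was analysed from 6 Pparafl/fl libraries of mouse intestine, 3 on HFD and 3 on chow. The deposited values are expected counts per gene, estimated by RSEM, and the submitters' processing notes also name Trimmomatic, STAR, Picard and mm10. Per the labels' protocols, RNA was prepared with a stranded total RNA kit. For the annotation release and strand setting, the sources used here name none, so antisense and overlapping genes are uncertain, as is the split of reads among near-identical genes. Of 47643 gene IDs, 47224 were named from GENCODE vM21 (mm10), whose coordinates are printed.

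The expected counts, rounded to integers, were filtered with filterByExpr. They were scaled by TMM and tested with edgeR 4.0.16 in R 4.3.3 (robust quasi-likelihood F test, Benjamini-Hochberg adjustment over 16895 genes, threshold 0.05). The standard error is the absolute log2 fold change divided by the square root of F. No covariate entered the fit. The test was checked on simulated counts with the same spread per gene in both groups. That check does not cover the unequal spread of the HFD and chow libraries. Alternatives used DESeq2 1.42.0, limma 3.58.1, other filters, all 12 libraries, a proximal score (the mean of centred log2 of CPM + 0.5 over proximal markers), a replicate block and libraries left out.

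Named genes were Ppara, the 12 largest increases and 12 largest decreases (mean log2 CPM of at least 1, groups without overlap, established symbol), and anchors and up to 3 further members of 52 gene lists. Other list members and the promoters shown were chosen after their values were seen. The comparison and the lists were chosen with earlier results of these data known. Promoter windows are from RefSeq (GRCm38.p6). Some genes that this rule names are not reported here.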

Additional observations from a re-analysis of the deposited data

How the results depend on the processing

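The 3415 calls (1760 higher, 1655 lower, 542 of at least 2-fold) became 5354 (2717 higher, 2637 lower) under limma voom with sample quality weights. Requiring 50 counts in 3 libraries gave 347 calls of at least 2-fold. With all 12 libraries and the proximal score 0 genes passed in any direction or size, and with the score without Fabp1, Gata6 and Hoxb5 45 passed (28 higher, 17 lower, 28 of at least 2-fold). The count was 3373 with DESeq2 size factors, 3337 by DESeq2's Wald test, 3427 without a filter and 2353 with all 12 libraries. With a library left out the calls ran from 1512 to 5689, the higher ones from 818 to 2675, the lower ones from 694 to 3014 and those of at least 2-fold from 390 to 666. The cause of these shifts was not tested, and the fits with a score had larger standard errors by construction.

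With all 12 libraries and the proximal score the log2 fold change changed sign for Abcg5 (-0.02), Acadm (-0.02), Cyp2b10 (-4.27), Fbp1 (-0.26), Gpx2 (0.08), H2-K1 (0.10), Hk2 (0.03), Hsd17b7 (0.08), Mogat2 (-0.00), Nos2 (0.19), Pgk1 (0.00), Plb1 (-0.93), Pyy (0.19), Rdh16 (0.35), Sar1b (0.08), Slc10a2 (0.75), Slc2a2 (-0.44) and Slc51b (0.29). With the reduced score it did so for Cyp2b10 (-1.85), H2-K1 (0.05), Pyy (0.06), Rdh16 (0.07), Slc10a2 (0.45) and Slc51b (0.09). Uncalled genes near 0 changed sign without HFD library 1 (Acadm at -0.02, Slc10a2 at 0.02, Dbp at 0.08), HFD library 2 (Acadm at -0.05, Mogat2 at -0.01, Dbp at 0.06, Lyve1 at -0.05), chow library 1 (Dbp at 0.02), chow library 2 (Lyve1 at -0.07) or chow library 3 (Dbp at 0.01), and Dbp was at 0.00 when 50 counts in 3 libraries were required. With a library left out Acadm ran from -0.05 to 0.10, Mogat2 from -0.01 to 0.11, Slc10a2 from -0.25 to 0.02, Dbp from -0.21 to 0.08 and Lyve1 from -0.07 to 0.09, none of them called. The uncalled genes Gata4, Cybrd1, Cyp3a11, Cyp3a13, Cyp2c55, Cd74, H2-Ab1, H2-Aa, B2m, Dnajb1 and Ddit3 were not followed across these settings.

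Of 172 genes named in the text and called, 138 were called in every fit with a library left out in which they were tested, 6 fits for all but Car1, which was tested in 4. All 172 kept their direction in those fits. Without HFD library 1 the calls of Acadvl, Apoc3, Cd36, Gsdmc4, Hadhb, Isg15, Itln1, Lrg1 and Rdh16 were lost. Without HFD library 2 the calls of Abcg8, Cd36, Dgat2, Fabp1, Fasn, Hacl1, Itln1, Lrg1, Mylk, Nqo1, Pyy, Rdh16, Saa1 and Slc27a4 were lost. Without HFD library 3 the calls of Cck, Dgat2, Gzma, Gzmb, Hacl1, Igtp, Lrg1, Pyy and Sar1b were lost. Without chow library 1 the calls of Abcg1, Abcg8, Apoa4, Apoc3, Cck, Cd36, Dgat2, Fabp1, Fasn, Gzma, Hacl1, Hadhb, Hlf, Hnf4g, Igha, Igtp, Itln1, Lrg1, Mylk, Nqo1, Nudt19, Ppargc1b, Pyy, Rdh16, Saa1, Sar1b, Slc27a4 and Slc30a1 were lost. Without chow library 2 the calls of Cck, Dgat2, Fabp1, Hacl1, Hadhb, Igha, Itln1, Lrg1, Mylk, Nqo1, Pyy, Rdh16, Saa1, Sar1b, Slc27a4 and Slc30a1 were lost. Without chow library 3 the calls of Abcg1, Abcg8, Apoa4, Apoc3, Arntl, Cck, Cd36, Ciart, Dgat2, Fabp1, Fasn, Gzma, Hacl1, Hadhb, Hlf, Igha, Igtp, Itln1, Mylk, Nqo1, Ppargc1b, Pyy, Rdh16, Saa1, Sar1b, Slc27a4 and Slc30a1 were lost.

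With the replicate number as a block 2889 genes were called (1489 higher, 1400 lower, 511 of at least 2-fold). No pairing by the labels' numbers was seen. Deviations of same-numbered libraries correlated at -0.068, 0.039 and -0.049, and 2 of 6 libraries correlated best with their own number. With 3 libraries in each group these values cannot settle whether the numbers pair the libraries.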

Other observations

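Blood and lymph vessel markers were higher in 5 of 9 tested members (3 without chow library 1 or 3) and lower in 0 (median 0.55), with a summed level of 61.7 to 66.3 CPM in HFD and 44.7 to 47.9 CPM in chow. Flt4, a receptor of lymphatic vessels, measured 6.45, 6.19 and 5.69 CPM in HFD, against 2.87, 2.90 and 2.99 CPM in chow (log2 fold change 1.06, SE 0.12, adjusted p = 0.00033 in edgeR's quasi-likelihood test). Lyve1, another lymphatic marker, was 4.48, 4.90 and 4.07 CPM in HFD and 4.76, 3.74 and 4.65 CPM in chow, with overlapping groups (0.03, SE 0.14, adjusted p = 0.91). Kdr, the main receptor of blood vessel growth factor, rose by 0.75 (adjusted p = 0.0011). Of 12 fibroblast markers 4 were higher (2 without chow library 1 or 3) and 0 lower, among them Pdgfra (0.86, adjusted p = 0.00028) and Col6a1 (0.81, adjusted p = 0.00019). Of 14 B and plasma cell markers 3 were higher (1 without any one chow library) and 0 lower. Iglc1, a light chain constant gene, measured 49.0, 38.3 and 54.9 CPM in HFD, against 16.0, 15.1 and 16.9 CPM in chow (1.57, adjusted p = 7.4e-05), and Igha, the heavy chain of IgA, rose by 0.31 (adjusted p = 0.014).

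Stress genes moved in both directions. Of 19 tested 6 were higher (3 without chow library 1 or 3) and 3 lower. The heat shock chaperones Hsph1 (1.12, adjusted p = 0.0088), Hsp90aa1 (0.60, adjusted p = 0.0068) and Hspa8 (0.42, adjusted p = 0.0043) rose. The list members Dnajb1 (0.18, adjusted p = 0.2) and Ddit3 (0.16, adjusted p = 0.31) did not pass the test. Genes of the amino acid response were the 3 lower. They were Atf4, its transcription factor (-0.32, adjusted p = 0.0041), and its targets Asns (-1.06, adjusted p = 0.002) and Chac1, which measured 2.14, 1.49 and 2.35 CPM in HFD, against 5.08, 5.30 and 5.62 CPM in chow (-1.42, SE 0.17, adjusted p = 0.00051). Of 17 clock genes 5 were higher and 1 lower, and the higher count was 1 without chow library 3, 2 without chow library 1 and 3 without HFD library 2. The activators Arntl (0.54, adjusted p = 0.012) and Npas2 (0.69, adjusted p = 0.0065) were higher. Among clock output genes, Hlf was higher (1.38, adjusted p = 0.016), Ciart was lower (-0.76, adjusted p = 0.01), and Dbp (-0.01, adjusted p = 0.98) and Nr1d1 (-0.12, adjusted p = 0.48) did not pass the test. The labels used here give no hour of sampling.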
